A study of Mus musculus with 6 samples.

Results

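Genes of the hypoxia response and of glycolysis were examined in mouse Th9 cells, CD4 helper T cells that make interleukin 9. The set held 41 genes, taken as a list of symbols and matched in the first column of the deposited gene count table, and 41 of 41 were found among the 21233 genes there. All 41 passed the filter on low counts and were tested. Of these, 16 encode the enzymes that run from hexokinase to lactate dehydrogenase, and the other 25 are oxygen sensors and targets of the hypoxia-inducible factor. The split is by role, and enzyme genes such as Ldha are targets of that factor too. Bulk RNA was sequenced from 3 libraries of Th9 cells treated with sorafenib, an inhibitor of RAF kinases and receptor tyrosine kinases, and from 3 libraries of control Th9 cells that received no sorafenib. The labels give no dose, duration, oxygen tension, mouse strain or culture protocol. Libraries are numbered within each group with no word on whether separate mice or dishes supplied them, so every p-value here reflects the variation among these 6 libraries, which may be only technical.

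Hypoxia-inducible factor 1 is a transcription factor whose alpha subunit, the product of Hif1a, is hydroxylated by the prolyl hydroxylases of the Egln genes when oxygen is present and is then marked for degradation by the Vhl ubiquitin ligase. When it escapes this, it binds DNA with its partner Arnt and activates genes for glucose uptake, glycolysis, mitochondrial turnover, collagen modification and angiogenesis. Activated T cells raise HIF-1 alpha and glycolysis even with oxygen present, downstream of the antigen receptor and mTOR.

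Of the 41 genes, 20 fell in sorafenib-treated cells, 1 rose and 20 did not pass the test (edgeR quasi-likelihood F test, Benjamini-Hochberg adjusted p under 0.05 over 13255 genes tested). Over all tested genes, 9.43% were called lower and 8.51% higher. The median log2 fold change, sorafenib minus control, was −0.32 over the 41 genes and −0.01 over all tested genes, and 39 of the 41 values were negative. For 31 of the 41 genes every sorafenib library lay below every control library, a pattern that 18.0% of all tested genes showed. The 25 genes other than the enzymes made up the larger share of the calls: 18 fell, none rose, and their median was −0.40. Among the 16 enzymes 2 fell, Hk1 and Aldoc, 1 rose, Ldhb, 13 were not called, and the median was −0.23. A difference between the enzymes and the other genes was not tested. In bulk RNA, fewer cells of a type and less RNA per cell cannot be told apart.

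**Figure D1:**
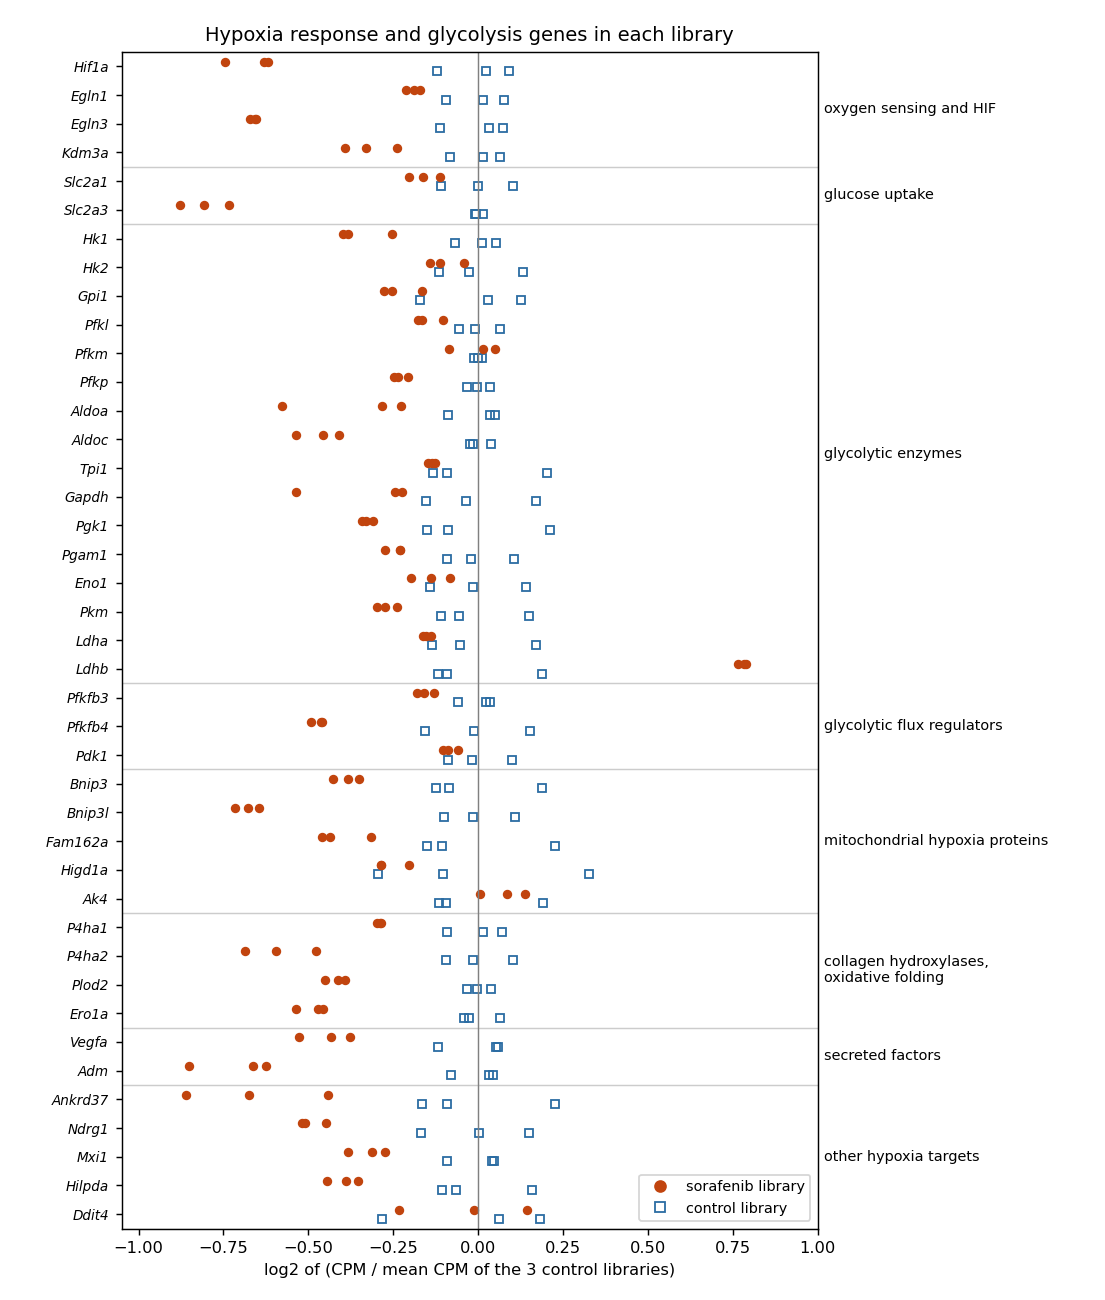
Each of the 41 genes, grouped by role down the page, in the 6 libraries; the horizontal axis is the log2 of the library's CPM (depth-scaled counts) over the mean CPM of the 3 control libraries, with filled circles for sorafenib libraries above open squares for control libraries. The sorafenib libraries lie left of every control library for 31 genes, and right of every control library for Ldhb.

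The libraries held 36981476 to 38126521 counts, so 3 counts, the floor used for detection, were 0.0787 to 0.0811 CPM (counts scaled to library depth and by TMM factors). The 41 genes took 3.49% of counts in each sorafenib library and 3.97 to 4.18% in the control libraries. Control library 2 stood apart from the other libraries, with a median absolute log2 deviation from its group of 0.181 against 0.0632 to 0.142 elsewhere. It was the highest of the 6 libraries for 11 of the 16 enzymes and for 16 of the other 25 genes. Without it the median log2 fold change was −0.17 for the enzymes and −0.31 for the other 25. The T cell genes Cd4 and Cd3e and the Th9 cytokine gene Il9 were detected in every library. Of the 9 marker genes of CD4 T and Th9 cells, 2 were called higher, among them Il9, and 2 lower, Cd3e and Cd3g. Their summed level was 2700 to 2794 CPM in sorafenib libraries and 2804 to 3024 CPM in control libraries. This sum mixes genes that moved in both directions. Cd4 itself averaged 496 CPM in sorafenib and 476 CPM in control libraries and was not called (edgeR adjusted p = 0.671). B cell markers summed to 22.1 to 25.02 CPM in sorafenib libraries and 6.14 to 13.2 CPM in control libraries, and 3 of 4 were called higher, among them Cd79a and Cd79b, while Ms4a1 was at or below 0.0522 CPM throughout. Macrophage and dendritic cell markers summed to 5.74 to 7.35 CPM in sorafenib libraries and 2.33 to 3.17 CPM in control libraries, with 1 of 6 called higher. Only 2 of these 6 passed the filter, and Csf1r and Lyz2 reached 0.0515 and 0.266 CPM at most. CD8 T cell markers summed to 8.89 to 11.1 CPM in sorafenib libraries and 6.17 to 7.09 CPM in control libraries, with 1 of 2 called higher. The other, Cd8a, was not called, at 0.386 to 0.511 CPM in sorafenib libraries and 0.188 to 0.613 CPM in control libraries. Each of these 2 sums thus came mostly from 1 gene. Of the 3 neutrophil markers looked for, only Ly6g was in the count table. It was at 0 to 0.0522 CPM in sorafenib libraries and 3.33 to 3.48 CPM in control libraries. The part of any such cells, and of control library 2, in the results below was not tested except where values without that library are given.

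Promoter sequence was read for the members to show the motif that hypoxia-inducible factors are known to bind. Of the 41 genes, 37 had at least 1 entry in the RefSeq promoter table (GRCm38.p6, from 250 bases before to 50 bases after each start), and Ndrg1, Plod2, Bnip3l and Slc2a3 had none. The core spellings ACGTG and GCGTG were searched on both strands (as CACGT and CACGC on the reverse), with overlapping matches joined into 1 stretch. At least 1 stretch lay in a window of 35 of the 37 genes, or 94.6%, against 6976 of the 10397 tested genes with an entry, or 67.1%. All 16 of the genes called lower that had an entry held it, and so did 18 of the 20 that were not called. Counted by window, since a gene with several starts has several, 81.4% of the members' windows held it. Over all windows, which include those of genes not tested here, the share was 43.8%. Counted by gene on that wider background, it was 46.7%. The 250 bases before the start are given here for the 6 called genes with the smallest adjusted p among those with a stretch, 5′ to 3′ on the gene's strand, with the stretches in capitals. Where a gene had several windows, as Aldoc did, the window with the most stretches was taken. Bases just after the start were found in a transcript of the gene for Aldoc, Ldhb, P4ha2 and Adm, but not for Hif1a or Egln3. Their coordinates in GRCm38.p6 are chr12:73907617-73907866 on the plus strand for Hif1a, chr12:54203875-54204124 on the minus strand for Egln3, chr11:78322823-78323072 on the plus strand for Aldoc, chr6:142507958-142508207 on the minus strand for Ldhb, chr11:54100674-54100923 on the plus strand for P4ha2 and chr7:110627407-110627656 on the plus strand for Adm.
Hif1a: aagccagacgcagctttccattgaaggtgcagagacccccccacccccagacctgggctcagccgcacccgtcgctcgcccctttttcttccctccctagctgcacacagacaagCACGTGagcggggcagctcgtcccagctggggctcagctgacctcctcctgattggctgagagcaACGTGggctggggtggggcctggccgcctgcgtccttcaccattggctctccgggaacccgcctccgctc
Egln3: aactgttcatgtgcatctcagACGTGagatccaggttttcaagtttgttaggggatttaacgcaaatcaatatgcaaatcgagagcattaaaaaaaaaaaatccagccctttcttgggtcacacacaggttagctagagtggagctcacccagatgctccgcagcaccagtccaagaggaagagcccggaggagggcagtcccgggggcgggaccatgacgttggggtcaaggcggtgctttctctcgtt
Aldoc: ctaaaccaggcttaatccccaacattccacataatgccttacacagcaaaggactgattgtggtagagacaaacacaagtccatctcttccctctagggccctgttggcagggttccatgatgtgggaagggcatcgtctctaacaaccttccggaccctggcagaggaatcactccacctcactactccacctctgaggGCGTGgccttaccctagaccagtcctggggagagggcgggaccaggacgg
Ldhb: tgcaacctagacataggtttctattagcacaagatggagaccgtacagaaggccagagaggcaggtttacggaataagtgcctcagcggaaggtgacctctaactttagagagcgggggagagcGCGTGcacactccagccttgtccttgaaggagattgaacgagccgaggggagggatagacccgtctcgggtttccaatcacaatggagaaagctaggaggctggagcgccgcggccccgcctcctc
P4ha2: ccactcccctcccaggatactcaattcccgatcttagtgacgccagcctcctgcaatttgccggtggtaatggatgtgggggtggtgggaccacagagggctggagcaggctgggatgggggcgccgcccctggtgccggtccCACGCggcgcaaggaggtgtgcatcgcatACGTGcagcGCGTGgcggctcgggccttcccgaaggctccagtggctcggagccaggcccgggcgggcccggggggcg
Adm: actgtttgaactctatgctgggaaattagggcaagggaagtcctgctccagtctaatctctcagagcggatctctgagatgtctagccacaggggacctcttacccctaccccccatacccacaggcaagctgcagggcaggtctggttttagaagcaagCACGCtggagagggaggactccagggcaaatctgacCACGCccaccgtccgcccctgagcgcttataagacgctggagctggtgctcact
Hif1a and Adm each showed 2 stretches in these bases, P4ha2 showed 3, and Egln3, Aldoc and Ldhb showed 1. All 6 genes, with Ldhb, the enzyme gene that rose, among them, held the core because only genes with a stretch were shown. A match is a description of the letters and not evidence of binding.

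Hif1a, the oxygen-regulated subunit itself, fell 1.58-fold. Its level was 722, 789 and 782 CPM in the sorafenib libraries, against 1231, 1113 and 1289 CPM in the control libraries. The groups did not overlap, and the lowest control library was above the highest sorafenib library by more than the range within either group. The log2 fold change was −0.66 ± 0.091 (SE, n = 3 libraries each; edgeR adjusted p = 0.000768). Egln3, a hypoxia-inducible prolyl hydroxylase, fell to 1074, 1059.8 and 1071 CPM in sorafenib libraries, against 1563, 1778 and 1728 CPM in control libraries. The sorafenib libraries lay close together and far below the control libraries, and the log2 fold change was −0.66 ± 0.090 (edgeR adjusted p = 0.000745).

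Egln1, another prolyl hydroxylase, had 579, 589 and 595 CPM in sorafenib libraries and 628, 707 and 677 CPM in control libraries. These groups did not overlap, but the difference did not pass the test (log2 fold change −0.19 ± 0.079; edgeR adjusted p = 0.128), and it passed without control library 2 (adjusted p = 0.0412) and with DESeq2 (0.0474). Kdm3a, a histone demethylase induced by hypoxia, fell by a log2 value of 0.32 ± 0.073, with 233 to 258 CPM in sorafenib libraries and 288 to 319 CPM in control libraries (edgeR adjusted p = 0.0125). Its call was lost without sorafenib library 2 (adjusted p = 0.0775), sorafenib library 3 (0.0812) or control library 3 (0.0654), while those of Hif1a and Egln3 were kept in each of 18 alternatives.

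The other genes that control HIF were read as a list. Of 16 tested regulators (partners, ubiquitin ligase subunits, hydroxylases and coactivators), 2 fell, none rose, and the median log2 fold change was −0.06. Over all tested genes 9.43% were called lower and 8.51% higher, and a difference of the regulators from these shares was not tested. Os9, whose human protein was reported to promote hydroxylation of HIF-1 alpha, averaged 138 ± 1.601 CPM in sorafenib libraries and 189.8 ± 9.60 CPM in control libraries (SD, n = 3 each; edgeR adjusted p = 0.00103). Vhl, the substrate receptor of the ligase, averaged 76.4 ± 3.04 CPM in sorafenib libraries and 90.2 ± 4.98 CPM in control libraries (edgeR adjusted p = 0.0414). The Vhl call was lost in 11 of 18 alternatives, among them leaving out sorafenib library 1 (adjusted p = 0.173), 2 (0.0834) or 3 (0.167) or control library 3 (0.0993), and in a fit with the replicate number as a block (0.0646).

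Glucose enters T cells mainly through the transporters GLUT1, encoded by Slc2a1, and GLUT3, encoded by Slc2a3. Slc2a3 had the most negative log2 fold change of the 41 genes, −0.81 ± 0.088, a 1.75-fold lower level (edgeR adjusted p = 0.000196). It had 1036, 1144 and 1087 CPM in sorafenib libraries, against 1923, 1893 and 1892 CPM in control libraries. The control libraries lay close together, and the highest sorafenib library was far below them. Slc2a1 had 763, 715 and 736 CPM in sorafenib libraries and 764, 885 and 824 CPM in control libraries. Its highest sorafenib library all but met its lowest control library, and it did not pass the test (log2 fold change −0.16 ± 0.086; adjusted p = 0.240).

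On the per-length scale of FPKM, counts scaled by depth and gene length, which allows levels of different genes to be set side by side, Slc2a3 made up 37.8, 41.8 and 39.8% of the summed Slc2a1 and Slc2a3 level in sorafenib libraries, against 53.01, 48.96 and 50.7% in control libraries. The share was 39.8 ± 1.96% in sorafenib and 50.9 ± 2.03% in control libraries (SD, n = 3 each; two-sided exact permutation p = 0.1, the smallest that 3 against 3 libraries allow). On this scale, Slc2a1 was thus the more abundant of the pair in each sorafenib library, and Slc2a3 in control libraries 1 and 3.

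**Figure D2:**
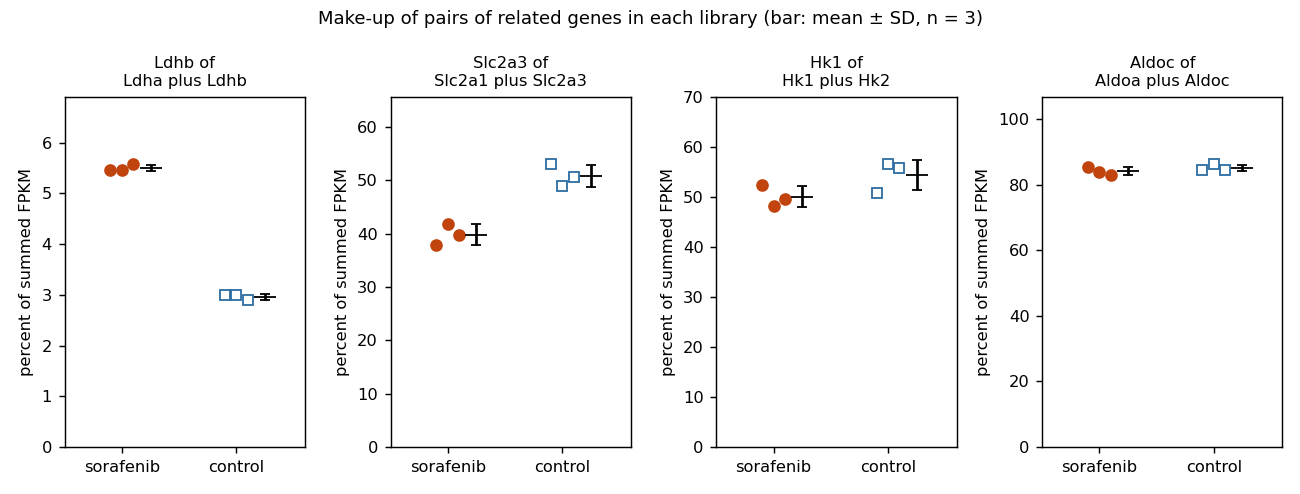
Share of summed FPKM, in percent, contributed by Ldhb, Slc2a3, Hk1 and Aldoc to their pair of paralogs, with each point a library, sorafenib left of control, and bars for the mean and SD. Ldhb shares were 5.46 to 5.57% in sorafenib and 2.89 to 3.001% in control libraries, Slc2a3 shares were lower in every sorafenib library, and the Hk1 and Aldoc shares overlapped.

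Some of the glycolytic enzymes were the most abundant of the 41 transcripts. In FPKM, Pgk1, Eno1, Tpi1, Pkm and Gpi1 were the 5 highest in both groups, whereas Pfkm, Aldoa and Ldhb were among the lowest, and Pgk1 averaged 1926 ± 31.2 FPKM in sorafenib libraries and 2284 ± 201 FPKM in control libraries. The summed FPKM of the 16 enzymes was 8355 ± 77.9 in sorafenib libraries and 9207 ± 506 in control libraries, a difference of −9.25% (SD, n = 3 each; exact permutation p = 0.1, the smallest possible). The sum over the other 25 genes was 3977 ± 136 FPKM in sorafenib libraries and 4973 ± 83.6 FPKM in control libraries, a difference of −20% with the same exact p of 0.1. With FPKM rescaled by TMM factors, the scaling behind the CPM values, the difference was −14.2% for the enzymes and −24.3% for the other 25 genes. The groups did not overlap in either FPKM sum, and the control libraries were the more spread of the 2 groups for the enzymes.

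In the first steps, Hk1 and Hk2 encode the hexokinases that trap glucose in the cell. Hk1 fell, with 547, 494 and 499.5 CPM in sorafenib libraries, against 621, 658 and 676 CPM in control libraries (log2 fold change −0.34 ± 0.080; edgeR adjusted p = 0.0135). Every sorafenib library was below every control library, yet the call was lost without sorafenib library 2 (adjusted p = 0.0808), sorafenib library 3 (0.0985) or control library 3 (0.0640). Hk2, the inducible hexokinase of activated T cells, had 553, 593 and 564 CPM in sorafenib libraries and 668, 564 and 598 CPM in control libraries. Its groups overlapped (log2 fold change −0.10 ± 0.086; adjusted p = 0.495). In FPKM, Hk1 was 50.03 ± 2.15% of the pair in sorafenib libraries and 54.3 ± 3.06% in control libraries (exact permutation p = 0.2).

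Gpi1, which isomerises glucose 6-phosphate, had 1710.3 to 1852 CPM in sorafenib libraries and 1844 to 2264 CPM in control libraries (log2 fold change −0.23; adjusted p = 0.163, and 0.0317 with a gene length trend removed). Phosphofructokinase, the committed step, has 3 subunit genes, and none of them was called by the main edgeR fit, while DESeq2 called Pfkp. Pfkp, the platelet-type subunit and the largest contributor, had 936, 963 and 944 CPM in sorafenib libraries and 1109, 1138 and 1085 CPM in control libraries. Its groups did not overlap, and the adjusted p was 0.0752 with edgeR, 0.00439 without control library 2, 0.0108 with a gene length trend removed and 0.00310 with DESeq2. Pfkl gave a log2 fold change of −0.15 (adjusted p = 0.206). Pfkm, with a mean of 46.9 CPM in sorafenib and 47.1 CPM in control libraries, gave −0.01 (adjusted p = 0.974), and its sign turned with the scaling. Pfkp made up 61.04 ± 0.354% of the summed phosphofructokinase FPKM in sorafenib libraries and 62.6 ± 0.346% in control libraries (exact permutation p = 0.1), a small shift between groups that did not overlap.

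Aldolase splits fructose 1,6-bisphosphate. Aldoc fell to 111, 121 and 117 CPM in sorafenib libraries, against 159, 165 and 158 CPM in control libraries. The spread within each group was small beside the gap, and the log2 fold change was −0.47 ± 0.066 (edgeR adjusted p = 0.000872), kept in each of 18 alternatives. Aldoa had 12.1 to 15.4 CPM in sorafenib libraries and 16.9 to 18.6 CPM in control libraries, without overlap (log2 fold change −0.36 ± 0.111; adjusted p = 0.0501, 0.00911 without control library 2, and 0.0355 with DESeq2). The Aldoa level was low for a gene that usually encodes an abundant aldolase, 7.83 FPKM in sorafenib and 9.52 FPKM in control libraries. The mouse annotation of the older build lists 2 genes under the symbol Aldoa, and how reads shared by several genes were counted is not given in the sources used here. The Aldoa level, and with it the Aldoc share of 84.2 ± 1.25% in sorafenib and 85.2 ± 0.937% in control libraries (FPKM; exact permutation p = 0.4), is therefore uncertain.

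In the later steps, the means of Tpi1, Gapdh, Pgk1, Pgam1, Eno1, Pkm and Ldha were lower in sorafenib than in control libraries, but the main edgeR fit called none of these genes. DESeq2 called 4 of them lower, Gapdh (adjusted p = 0.0209), Pgk1 (0.00738), Pgam1 (0.00983) and Pkm (0.0104). Without a filter, edgeR called Gapdh (0.022) and Pgk1 (0.0387). With a gene length trend removed, edgeR called Gapdh (0.0182), Pgk1 (0.00425) and Pgam1 (0.00784). Pgk1, the first step that yields ATP, had 3416, 3469 and 3388 CPM in sorafenib libraries, against 3870.3, 4979 and 4045 CPM in control libraries. Control library 2 stood well above the other control libraries, and the log2 fold change of −0.33 ± 0.120 did not pass the test (adjusted p = 0.0893), but it passed without control library 1 (0.0466) or control library 2 (0.00611). Gapdh had 649, 531 and 659 CPM in sorafenib libraries and 750.5, 866 and 692 CPM in control libraries (log2 fold change −0.33 ± 0.113; adjusted p = 0.0715, and 0.0483 without control library 2). Pkm, the pyruvate kinase of T cells, had 5044 to 5253 CPM in sorafenib libraries and 5754 to 6884 CPM in control libraries (log2 fold change −0.27 ± 0.115; adjusted p = 0.139, and 0.0125 without control library 2). Pgam1 gave −0.24 ± 0.085 (adjusted p = 0.0745), and its adjusted p was 0.0464 without control library 1 and 0.0106 without control library 2. For Pgk1, Gapdh, Pkm and Pgam1 no sorafenib library reached a control library. Tpi1 and Eno1 overlapped between groups, each with a log2 fold change of −0.14 (adjusted p = 0.444 and 0.442).

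**Figure D3:**
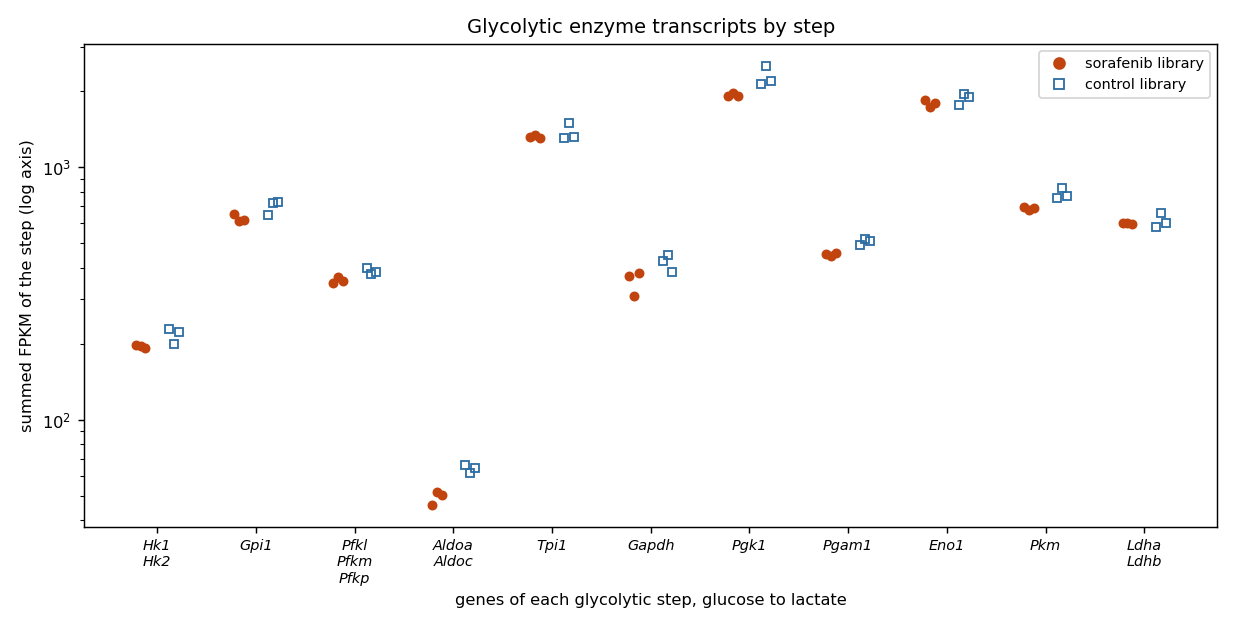
Summed FPKM (log axis) of the genes of each glycolytic step, from hexokinase to lactate dehydrogenase, with a point for each library and sorafenib libraries (filled) left of control libraries (open). The mean of sorafenib libraries differed from that of control libraries by −22.8% for aldolase, for the glyceraldehyde 3-phosphate dehydrogenase and phosphoglycerate kinase steps by −15.8% and −15.7%, and for lactate dehydrogenase by −2.2% (−26.8, −20.3, −20.3 and −7.53% after rescaling by TMM factors). The aldolase sum includes Aldoa, whose level is uncertain, and Aldoc alone differed by −23.7%.

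Lactate dehydrogenase was where the enzymes diverged. Ldhb, which encodes the heart-type subunit, was the 1 gene of the 41 that rose, 1.72-fold. It had 42.0, 41.4 and 42.1 CPM in sorafenib libraries, against 22.5, 27.8 and 22.9 CPM in control libraries. All sorafenib libraries were above all control libraries, and the log2 fold change of 0.78 ± 0.094 (edgeR adjusted p = 0.000359) was called in each of 18 alternatives. Ldha, the muscle-type subunit and a HIF target, had 2972, 2941 and 2921 CPM in sorafenib libraries and 2975, 3684 and 3151 CPM in control libraries. Its groups all but met (log2 fold change −0.15 ± 0.110; adjusted p = 0.396). Ldhb made up 5.47, 5.46 and 5.57% of the summed Ldha and Ldhb FPKM in sorafenib libraries, against 3.001, 2.998 and 2.89% in control libraries. The share was 5.5 ± 0.0638% in sorafenib and 2.96 ± 0.0632% in control libraries (SD, n = 3 each; exact permutation p = 0.1, the smallest possible), while the summed level was 598.8 ± 3.50 FPKM in sorafenib and 612.3 ± 38.9 FPKM in control libraries. Ldha thus remained the bulk of the lactate dehydrogenase transcript in both groups. The size of the share rests on the gene lengths behind FPKM, 5342 bases for Ldha and 1304 for Ldhb. In the older annotation their exons cover 3310 and 1570 bases. As a share of counts, the difference between the groups was 0.661 percentage points, against 2.537 on FPKM.

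A further 3 genes set the flow through glycolysis without being steps of it. Pfkfb3 and Pfkfb4 encode bifunctional enzymes that make and remove fructose 2,6-bisphosphate, the activator of phosphofructokinase. Pfkfb4, the lowest of the 41 genes, fell to 7.54, 7.38 and 7.53 CPM in sorafenib libraries, against 10.3, 9.32 and 11.5 CPM in control libraries (log2 fold change −0.47 ± 0.118; edgeR adjusted p = 0.0190). The groups did not overlap, but the call was lost without any 1 of the sorafenib libraries (adjusted p = 0.0718 to 0.0813) or control library 3 (0.0958), with total counts as the only scaling (0.0642) and on log2(FPKM + 1) (0.0903). Pfkfb3 had 215 to 223 CPM in sorafenib libraries and 234 to 249.9 CPM in control libraries (adjusted p = 0.127, and 0.0101 without control library 2). Pdk1, the kinase that switches off pyruvate dehydrogenase, had 289 to 298 CPM in sorafenib libraries and 291 to 332 CPM in control libraries (adjusted p = 0.489).

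Among genes for mitochondrial proteins of the hypoxia response, 3 of 5 fell. Bnip3l, a receptor that marks mitochondria for autophagy, had 395, 385 and 404 CPM in sorafenib libraries, against 590.2, 681 and 625 CPM in control libraries. The groups were far apart, and the log2 fold change was −0.68 ± 0.080, a 1.601-fold lower level (edgeR adjusted p = 0.000308). Its paralog Bnip3 had 484, 511 and 499 CPM in sorafenib libraries and 598, 741 and 614 CPM in control libraries (log2 fold change −0.39 ± 0.095; edgeR adjusted p = 0.0174). Fam162a, a HIF target linked to cell death under hypoxia, gave −0.40 ± 0.102 (edgeR adjusted p = 0.0202), with 241 to 266 CPM in sorafenib libraries and 298 to 387 CPM in control libraries. Bnip3 lost its call without sorafenib library 1 (adjusted p = 0.0977), 2 (0.0594) or 3 (0.0890), and Fam162a without sorafenib library 1 (0.107) or 3 (0.102).

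Higd1a, a small protein of the respiratory chain, had 180.1 to 191 CPM in sorafenib libraries and 179 to 276 CPM in control libraries, where control library 2 alone was above all others by a wide margin (adjusted p = 0.217). Ak4, a mitochondrial adenylate kinase, had 179 to 196 CPM in sorafenib libraries and 165 to 204 CPM in control libraries. It was the other gene with a positive log2 fold change, 0.08 ± 0.089 (adjusted p = 0.619), and it passed as higher without control library 2 (0.0153). In the older mouse annotation 22.3% of the exon bases of Bnip3, 19.8% of those of Fam162a and 22.5% of those of Higd1a are shared with exons of other genes. These genes lie on the other strand, and how strand was handled is not given, so the counts may be split. Exons shared at least in part with a gene on the same strand occur in Pkm (15.3% of bases shared in all), Pfkm (10.7%) and Hif1a (8.11%).

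All 4 genes for collagen hydroxylases and oxidative folding fell. P4ha1 and P4ha2 encode catalytic subunits of collagen prolyl 4-hydroxylase, Plod2 a lysyl hydroxylase, and Ero1a the oxidase that drives disulfide formation in the endoplasmic reticulum. P4ha2 fell 1.498-fold, with 109.6, 94.7 and 101 CPM in sorafenib libraries, against 143, 164 and 151 CPM in control libraries (log2 fold change −0.58 ± 0.080; edgeR adjusted p = 0.000763). Ero1a had 1235, 1291 and 1304 CPM in sorafenib libraries, against 1739.6, 1874 and 1759 CPM in control libraries (log2 fold change −0.49 ± 0.088; edgeR adjusted p = 0.00367). Plod2 had 163, 158 and 165 CPM in sorafenib libraries, against 212, 222 and 216 CPM in control libraries (log2 fold change −0.42 ± 0.063; edgeR adjusted p = 0.00126). For these genes the gap between the groups was wider than the range within either group. P4ha1 showed the smallest of the called decreases, −0.29 ± 0.068 (edgeR adjusted p = 0.0136), with 205 to 207 CPM in sorafenib libraries and 237 to 265 CPM in control libraries, and it lost its call without sorafenib library 1 (0.0705), 2 (0.0614) or 3 (0.0814) or control library 3 (0.0585).

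Both secreted factors fell. Vegfa, the angiogenic growth factor, had 351, 317 and 338 CPM in sorafenib libraries, against 474, 420.3 and 476 CPM in control libraries (log2 fold change −0.44 ± 0.080; edgeR adjusted p = 0.00367). Adm, which encodes the vasodilator peptide adrenomedullin, had 23.3, 27.2 and 26.5 CPM in sorafenib libraries, against 43.0, 39.7 and 43.3 CPM in control libraries. Its fall of 1.64-fold was second in size to that of Slc2a3 (log2 fold change −0.71 ± 0.087; edgeR adjusted p = 0.000382). No sorafenib library reached a control library for either gene. The Vegfa call was kept when any 1 library was left out and missed the threshold on unfiltered log2(FPKM + 1) (adjusted p = 0.0771).

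Of the 5 remaining hypoxia targets 4 fell. Ankrd37, an ankyrin repeat gene, had 33.6, 44.9 and 38.2 CPM in sorafenib libraries, against 54.3, 71.3 and 57.2 CPM in control libraries (log2 fold change −0.65 ± 0.126; edgeR adjusted p = 0.00539). In the older annotation 26.4% of its exon bases are shared with genes on the other strand. Ndrg1, a stress-responsive gene, gave −0.49 ± 0.099 (edgeR adjusted p = 0.00643), with 872 to 915 CPM in sorafenib libraries and 1109.96 to 1384 CPM in control libraries. Hilpda, which inhibits lipolysis in lipid droplets, gave −0.40 ± 0.084 (edgeR adjusted p = 0.00870), and Mxi1, an antagonist of Myc, gave −0.32 ± 0.074 (edgeR adjusted p = 0.0126). All 4 had every sorafenib library below every control library.

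Ddit4, an inhibitor of mTORC1 also induced by other stresses, did not follow them. It had 828, 1074 and 964 CPM in sorafenib libraries and 1105, 1014 and 799 CPM in control libraries, and the spread within each group exceeded the difference between them (log2 fold change −0.03 ± 0.134; adjusted p = 0.925). Left-out libraries ended the calls of Ndrg1 (sorafenib 3, adjusted p = 0.0533), Hilpda (sorafenib 1, 0.0601, or sorafenib 3, 0.0553) and Mxi1 (sorafenib 2, 0.0776, sorafenib 3, 0.0757, or control 3, 0.0608).

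**Figure D4:**
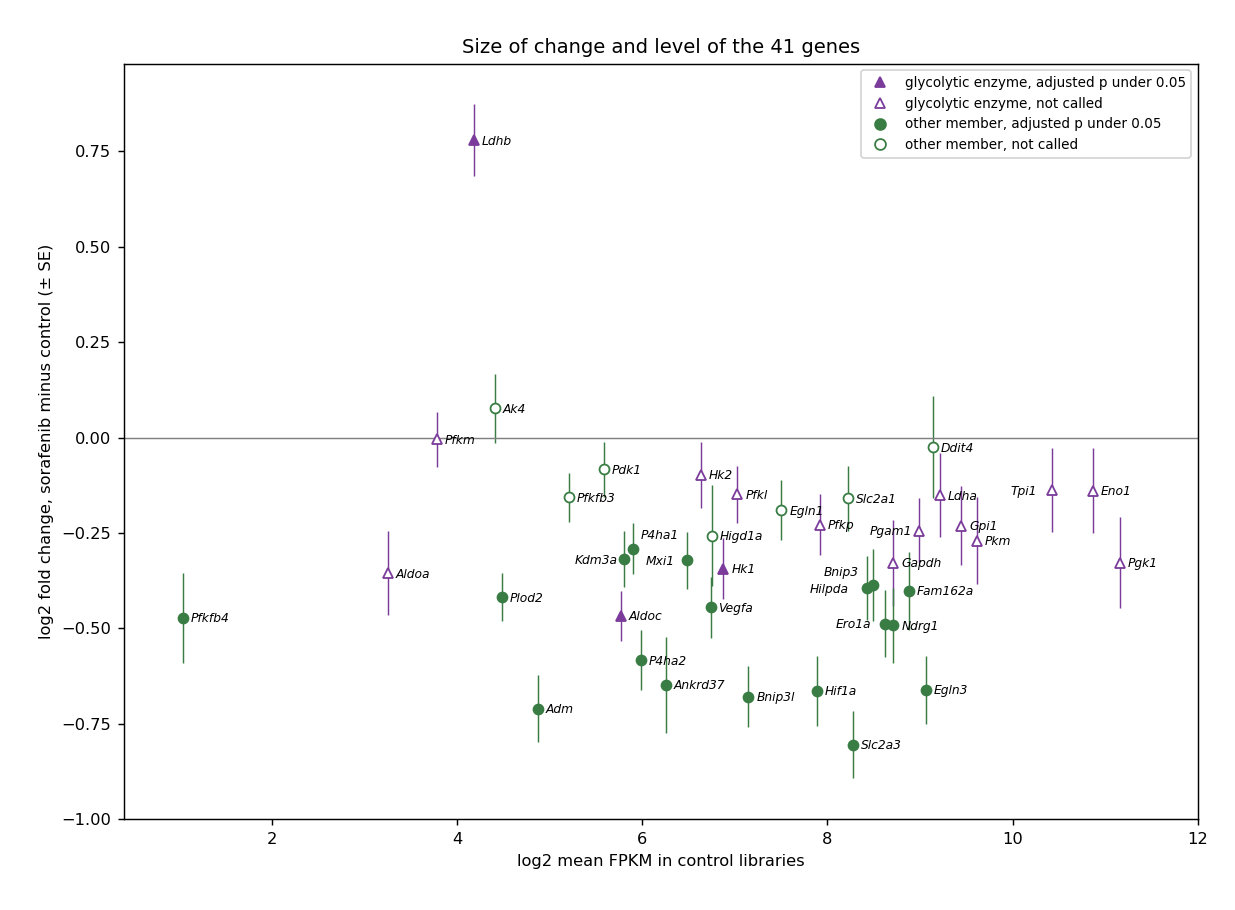
Log2 fold change, sorafenib minus control, with its SE for the 41 genes (vertical axis) against log2 of the mean FPKM in control libraries (horizontal axis), with filled symbols for called genes. Called decreases occurred from Pfkfb4, the lowest gene, to Egln3, while the 5 most abundant enzymes lay between −0.33 and −0.14 and were not called by the main edgeR fit (DESeq2 called Pgk1 and Pkm lower).

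Of the 41 genes, 10 were called in each of 18 alternative analyses. Of these, 9 were lower in sorafenib-treated cells, namely Hif1a, Egln3, Slc2a3, Aldoc, Bnip3l, P4ha2, Plod2, Ero1a and Adm, and Ldhb was higher. The count of enzymes called lower, 2, depended most on the analysis and was 8 with DESeq2 and 8 without control library 2. Without that library 28 of the 41 genes were called lower and 2 higher, when 16.8% of all tested genes were called lower. Without sorafenib library 3, 11 of the 41 were called lower, against 5.04% of all tested genes. In both settings the count for the 41 genes moved in the same direction as that for all genes. Without control library 1 it did not. There 22 of the 41 genes were called lower, against 20 in the main fit, and 8.05% of all tested genes, against 9.43%.

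Genes next to these pathways, chosen as lists, moved in both directions. For comparison with the counts below, 9.43% of all tested genes were called lower and 8.51% higher. Of 29 other hypoxia-responsive genes tested, 10 fell, 2 rose, and the median log2 fold change was −0.15. Cxcr4, the chemokine receptor, fell 1.62-fold, with 199.8 ± 9.10 CPM in sorafenib libraries and 324 ± 25.6 CPM in control libraries (SD, n = 3 each; edgeR adjusted p = 0.000237). Stc1, the glycoprotein stanniocalcin 1, rose 2.79-fold, with 12.4 ± 0.953 CPM in sorafenib libraries and 4.44 ± 0.576 CPM in control libraries (edgeR adjusted p = 5.71e-05). Most of the hypoxia-responsive genes outside the 41 leaned lower, with 21 of the 29 log2 fold changes negative, and Stc1 was among the 2 that rose.

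In glycogen metabolism 4 of 10 tested genes fell, none rose, and the median was −0.22. Gbe1, the branching enzyme and also in the list of hypoxia-responsive genes, had 105 ± 4.10 CPM in sorafenib libraries and 160.3 ± 6.98 CPM in control libraries (edgeR adjusted p = 0.000218). Pygl, a glycogen phosphorylase, had 40.7 ± 2.05 CPM in sorafenib libraries and 62.4 ± 3.82 CPM in control libraries (edgeR adjusted p = 0.000458). Genes of both synthesis and breakdown were therefore among those that fell. Pgm1, the phosphoglucomutase, gave a log2 fold change of −0.38 (adjusted p = 0.00909, and 0.0682 without sorafenib library 3).

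Of 7 hexose and monocarboxylate transporter genes tested, 2 fell and 1 rose. Bsg, the chaperone of lactate transporters, averaged 754 ± 40.0 CPM in sorafenib libraries and 1073 ± 124 CPM in control libraries (log2 fold change −0.51 ± 0.102; edgeR adjusted p = 0.00628). Slc16a3, the lactate exporter MCT4 and also in the list of hypoxia-responsive genes, averaged 486 ± 15.2 CPM in sorafenib libraries and 609 ± 48.0 CPM in control libraries (edgeR adjusted p = 0.0208). Slc2a6, a hexose transporter of leukocytes, averaged 15.2 ± 0.555 CPM in sorafenib libraries and 11.4 ± 1.64 CPM in control libraries (edgeR adjusted p = 0.0366). The last of these and Slc16a3 lost their calls without sorafenib library 1 (adjusted p = 0.0908 for Slc2a6 and 0.0753 for Slc16a3), 2 (0.117 and 0.102) or 3 (0.140 and 0.107) or control library 3 (0.0971 and 0.0636), and Slc16a3 also under the replicate block (0.0529).

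Of 11 genes for pyruvate entry into mitochondria, 2 fell, 1 rose, and the median was 0.12. Pdha1, the catalytic alpha subunit of pyruvate dehydrogenase, had 211 ± 5.95 CPM in sorafenib libraries and 169.8 ± 13.997 CPM in control libraries (edgeR adjusted p = 0.0151). Pdk3, a kinase that inhibits the complex, had 54.95 ± 2.10 CPM in sorafenib libraries and 70.5 ± 4.81 CPM in control libraries (edgeR adjusted p = 0.00833). Pdp1, a phosphatase that activates it, had 6.79 ± 0.746 CPM in sorafenib libraries and 9.503 ± 0.673 CPM in control libraries (edgeR adjusted p = 0.0234). These calls rested on few libraries: Pdha1 was lost without sorafenib library 1 (0.0805), 2 (0.0552) or 3 (0.0607) or control library 3 (0.0521), Pdk3 without sorafenib library 1 (0.0518) or 3 (0.0639), and Pdp1 without sorafenib library 1 (0.109) or 2 (0.0918) or control library 1 (0.0686).

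In the pentose phosphate pathway 1 of 7 genes fell, Pgd, with 129 ± 3.26 CPM in sorafenib libraries and 159 ± 9.92 CPM in control libraries (edgeR adjusted p = 0.0134), and without sorafenib library 1, 2 or 3 it was no longer called (0.0516, 0.0603 and 0.0921). None of the 8 other glycolytic isoenzyme genes tested was called by edgeR, DESeq2 or limma, and none had an unadjusted p under 0.05. The smallest belonged to Eno2 (14.8 ± 1.76 CPM in sorafenib and 17.2 ± 1.05 CPM in control libraries; adjusted p = 0.195) and Pfkfb1 (1.79 ± 0.438 CPM in sorafenib and 1.27 ± 0.400 CPM in control libraries; adjusted p = 0.324).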

How the data were processed

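Total RNA of 3 sorafenib-treated and 3 control Th9 cell libraries was sequenced, and groups were taken from the sample titles. The authors deposited unnormalised integer counts per gene and, separately, FPKM, which dividing each count by its library total and gene length gave back. The submitters' processing notes name the GRCm39 build and the tools HTSeq, HISAT2, fastp, DESeq2 and R 3.2.0. How strand and multi-gene reads were handled is not given in the sources used here. Values of paralogs and overlapping genes are therefore uncertain.

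Counts were tested across all genes with edgeR 4.0.16 in R 4.3.3 (filterByExpr, TMM scaling, robust quasi-likelihood F test, group as the only term, Benjamini-Hochberg adjustment over 13255 of 21233 genes, threshold 0.05). CPM are counts over TMM-scaled library size. Each SE was derived from the F statistic and covers these libraries only. Depth was 36981476 to 38126521 counts per library, and floors cover counting error only. Paralog shares and sums were compared on FPKM with two-sided exact permutation tests over libraries. The script was tested on simulated data with known changes. No 2 libraries agreed within sampling noise.

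The 41 genes and the neighbouring lists were chosen with earlier results of these data known. All 41 are named; of each neighbouring list, up to 4 called genes with the smallest adjusted p, or the 2 smallest where none was called. A few genes named by that rule or among the markers are not reported here. Marker genes are given as levels and calls of the same test, to describe the libraries. Alternatives were other scalings (DESeq2 size factors, upper quartile, total counts), no filter or at least 1 CPM in 3 libraries, DESeq2 1.42.0, limma 3.58.1 (voom, and log2 FPKM with a pseudocount of 1 or 0.1 and a filter of 0.5 FPKM or none), removal of a gene length trend, the replicate number as a block, each library left out, and an adjusted p under 0.01. Promoters came from the RefSeq table of GRCm38.p6, and exon overlap from GENCODE M21 of the same build; neither was mixed with coordinates of the files' build. No table of proteins was used here.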

Additional observations from a re-analysis of the deposited data

How the results depend on the processing

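Of the 41 genes, 20 were called lower, against 11 on unfiltered log2(FPKM + 1), 13 at an adjusted p under 0.01 and 11 to 28 with 1 library left out; 1 was called higher, or 1 to 2 with 1 library left out. Enzymes called lower numbered 2, against 5 without a filter, 8 with DESeq2, 8 with a gene length trend removed, 1 on unfiltered log2(FPKM + 1), 1 at an adjusted p under 0.01 and 1 to 8 with 1 library left out. The other genes called lower numbered 18, against 10 on unfiltered log2(FPKM + 1) and 10 to 20 with 1 library left out. The count of all genes called was 2378, against 1423 on unfiltered log2(FPKM + 1), 1227 at an adjusted p under 0.01 and 1243 to 4325 with 1 library left out. The cause of these differences was not tested; fewer libraries were fitted in the left-out analyses, and more genes were tested in the unfiltered ones. Over all tested genes 1250 were called lower and 1128 higher with TMM, 826 and 1496 with total counts, and 744 and 1398 on filtered log2(FPKM + 1), where the median of the 41 genes was −0.24 in both.

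The log2 fold change of Pfkm, −0.01, turned to 0.0319 with upper-quartile scaling, 0.0706 with total counts, 0.00297 without a filter, 0.066 on log2(FPKM + 1) with or without a filter, 0.0702 on log2(FPKM + 0.1), and ranged from −0.0271 to 0.0329 with 1 library left out. That of Ddit4, −0.03, turned to 0.0109 with upper-quartile scaling, 0.0509 with total counts, 0.0557 on log2(FPKM + 1) with or without a filter and 0.0558 on log2(FPKM + 0.1), and ranged from −0.141 to 0.0737 with 1 library left out. The other 39 genes kept their sign in every alternative. With the replicate number as a block, 20 members were called lower and 1 higher, and 2139 of all genes were called. The labels do not say whether the numbers pair the libraries. Deviations of same-numbered libraries correlated at −0.138, 0.108 and 0.131 across genes, and 2 of 3 correlated best with their own number. With 3 libraries in each group, these values cannot decide whether the libraries were paired. Counting precision was lowest for Pfkfb4 and Aldoa, the genes of the set with the fewest counts.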
